A study of Mus musculus with 19 samples.

Results

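Negative regulators of T cell receptor (TCR) signaling were described through the mouse thymus as 7 genes, Ptpn6, Ptpn2, Ptpn22, Ubash3a, Cbl, Cblb and Csk. They were taken by name from the RNA rows of the count tables, which list 28692 genes. All 7 passed the filter on low counts in every comparison below.

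The cells were thymocytes of 17 mice aged 4 to 8 weeks, run in 19 lanes by CITE-seq, which counts the messenger RNA and the antibody-tagged surface proteins of each cell as unique molecular identifiers (UMIs). There were 5 wild-type C57BL/6 mice, B6 (WT) in the labels, and 2 mice of each of 6 lineage-restricted genotypes. AND and OT-II mice carry a transgenic TCR specific for MHCII, and MHCI-/- mice lack B2m. These 6 mice are called CD4-fated. F5 and OT-I mice carry a transgenic TCR specific for MHCI, and MHCII-/- mice lack H2-Ab1. These 6 mice are called CD8-fated. AND and F5 mice also lacked Rag1, so that each of these lines makes 1 receptor, whereas OT-I and OT-II mice can still rearrange endogenous receptors. WT 1 to 3 and all MHC-deficient mice were sorted as CD5+TCRB+ cells, and the others were not sorted. The mice fell into 3 experiments. The OT-I, OT-II, WT 4 and WT 5 mice made up 1 experiment, run at another site than the rest, so sort, experiment and site cannot be told apart between WT 1 to 3 and WT 4 and 5, nor can the OT lines be told apart from their experiment.

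Lanes held 9893333 to 43303999 RNA UMIs and median depths of 1490 to 7145 UMIs per cell. Of 85389 barcodes 69243 were kept as single cells, and 2 lanes shared at most 35 barcodes, 1.27% of the smaller lane. Clusters formed without the 7 genes gave 37 groups of cells, and 26 clusters with 50375 cells were named from marker genes. A name ending in "-like" below means only that. Levels are given as CPM, the UMIs of a gene in the summed cells of 1 mouse scaled to a library of 1000000 UMIs by the TMM method, and fewer cells that hold a message cannot be told apart from less message per cell. B2m, deleted in MHCI-/- mice, had 46.5 and 48.8 CPM there and 402 to 1250 in the other 15 mice. H2-Ab1, which thymocytes barely express, was at 8.79 and 8.81 in MHCII-/- mice, within the 3.79 to 58.9 of wild-type mice, so it does not check that label. Rag1 was at 5.08 and 20.3 in AND and 19.6 and 54.1 in F5 mice, as low in OT-I mice (26.9 and 52.2) and at 93.1 or more in wild-type mice, and 3′ tags need not lie in a deleted part. A difference is a log2 fold change with its standard error (SE) from edgeR's quasi-likelihood test over all genes, and a gene is called where its Benjamini-Hochberg adjusted p is under 0.05.

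When a TCR binds peptide and MHC, the kinase Lck phosphorylates the receptor and then Zap70, and the signal spreads through adaptors to calcium, Ras and NF-kB. Csk puts the inhibitory phosphate on Lck and Fyn. The phosphatases encoded by Ptpn6 (SHP1), Ptpn22 (PEP, which binds Csk) and Ptpn2 (TCPTP) remove activating phosphates from Lck, Zap70 or their targets, and TCPTP also acts on JAK and STAT proteins. Cbl and Cblb are E3 ubiquitin ligases that tag receptors and signaling proteins for removal, and Ubash3a is a ubiquitin-binding relative of the phosphatases that acts on Zap70 signaling. In the thymus, CD4+CD8+ double-positive (DP) cells need weak TCR signals for positive selection, strong signals lead to deletion or to regulatory T cells, and the survivors mature as CD4 or CD8 single-positive (SP) cells.

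By the GENCODE vM21 annotation of GRCm38, the mm10 assembly that the deposited counts used, Ptpn6 lies on the minus strand at chr6:124720707-124738714 and Csk on the minus strand at chr9:57626646-57653631. Cbl is at chr9:44142976-44234049 (minus strand), Cblb at chr16:52031225-52208048, Ptpn22 at chr3:103859795-103912247 and Ubash3a at chr17:31207873-31246892 (all 3 on the plus strand). The antisense gene Gm20531 overlaps Ptpn6, 3 small genes or pseudogenes overlap Ptpn22, 2 overlap Cbl and 1 overlaps Cblb, and the sources used here do not say how reads in such overlaps were assigned.

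Csk and Ptpn6 were the 2 members whose levels rose furthest between quiescent and signaled DP-like cells, and the 250 bases upstream of their starts (RefSeq, GRCm38.p6, minus strand of chr9:57653632-57653881 and of chr6:124738710-124738959) are shown for that reason. Capitals mark matches on either strand to CACCTG, an E-box that E proteins such as HEB bind, and to CGGAAG, the core of many ETS factor sites. These are 2 of 4 motifs searched, chosen after the expression values had been seen.
Csk: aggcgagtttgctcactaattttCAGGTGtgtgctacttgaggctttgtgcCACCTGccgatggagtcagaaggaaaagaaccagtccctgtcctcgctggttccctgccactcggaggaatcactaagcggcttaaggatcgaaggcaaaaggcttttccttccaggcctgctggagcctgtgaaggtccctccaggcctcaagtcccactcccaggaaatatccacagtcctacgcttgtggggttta
Ptpn6: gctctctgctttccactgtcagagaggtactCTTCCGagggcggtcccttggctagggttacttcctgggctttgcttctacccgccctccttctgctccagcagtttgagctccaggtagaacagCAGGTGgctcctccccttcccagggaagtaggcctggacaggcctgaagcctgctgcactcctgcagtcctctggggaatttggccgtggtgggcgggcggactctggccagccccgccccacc
CACCTG or its complement stood at 2 places in the Csk window and at 1 in the Ptpn6 window, and in 17.2% of the 32851 RefSeq promoter windows of the same length. CGGAAG or its complement stood once in the Ptpn6 window and in 13.6% of all windows, and did not occur in the Csk window. Of the 7 genes 6 had an entry, and among those the other 4 windows held neither motif. The other motifs searched on both strands were GCGNGGGCG, an EGR site, found in the Cbl window only and in 4.70% of all windows, and GGAAA, the NFAT core, found for 5 of the 6 genes and in 55.6% of all windows. These are matches of letters only.

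The first comparison asked how the 7 genes differ between classes of wild-type thymocytes. Signaled DP-like cells were named from Egr1, Egr2, Itm2a, Cd69, Cd5 and Nab2. Their clusters had 3105, 2954 and 243 cells over all mice. The cluster of 2954 had only Itm2a of these markers among its 10 leading genes. Quiescent DP-like cells were named from genes that include Rag1, Rag2, Arpp21 and Aqp11. Signaled DP-like cells had more Ptpn6, Csk and Ptpn2 RNA and less Cbl and Ptpn22 RNA than quiescent DP-like cells. Cblb was called higher by edgeR (0.45, adjusted p = 0.048) but not by DESeq2 (0.41, adjusted p = 0.095), and not with total UMIs, in either sort alone or without any 1 of 4 of the mice. Thus 6 of the 7 were called in this contrast by edgeR and 5 by DESeq2, against 40.1% of the 11274 genes tested with edgeR. Single-positive and later classes were lower still in Cbl, and Cblb was highest in Treg-like and negative selection-like cells among the classes with 5 mice. Over 14 contrasts between classes, 79 of 98 tests of the 7 genes were called by edgeR and 78 by DESeq2, where 46.7% of the tests of all genes in these contrasts were called by edgeR. With total UMIs in place of TMM it was 72 of 98 and 53.4%. With 1 wild-type mouse left out, 66 to 75 were called.

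Ptpn6 stood at 102, 69.04, 80.8, 60.1 and 63.8 CPM in quiescent DP-like cells of WT 1 to 5, and at 287, 246, 320.1, 249 and 192 in those of the signaled class. No quiescent value reached a signaled value. The difference was 1.76 (SE 0.11, edgeR adjusted p = 4.4e-21), with 1.66 in the 3 sorted and 1.83 in the 2 unsorted mice. Ptpn6 was also above the quiescent DP-like level in CD4 SP-like cells (1.53, SE 0.11), in CD8 SP-like cells (1.81, SE 0.11) and in mature SP-like cells (1.40). Against signaled DP-like cells it was lower in mature SP-like cells (-0.36, SE 0.10). CD8 SP-like cells were not called there (0.04, higher in 4 of 5 mice). A cluster of 1235 cells named CD8 SP-like had Hells, Mcm3 and Mcm5 among its leading genes. An unnamed cluster nearest cycling-like cells had these genes among its own. The part of cycling cells in the CD8 SP-like values was not tested. In lineage-restricted mice the mature SP-like class came mostly from CD4-fated mice, with 1049 and 739 cells in AND and 668 and 634 in MHCI-/- mice. F5 mice held 1 and 2, MHCII-/- mice 2 and 5 and OT-I mice 97 and 158, so this class says little of late CD8 cells.

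Csk, the kinase that restrains Lck, went from 139, 119, 147, 107 and 129.6 CPM in the quiescent class to 370.4, 292, 257, 201 and 258 in the signaled class. All 5 mice were higher and the ranges did not overlap. The difference was 1.12 (SE 0.10, edgeR adjusted p = 5.4e-15), 1.20 in sorted and 0.95 in unsorted mice. In CD4 SP-like cells Csk reached 422, 307, 329, 335 and 328, or 1.45 above quiescent DP-like cells (SE 0.10). Its level in negative selection-like cells was lower than in signaled DP-like cells by the pooled fit (-0.29, SE 0.10), but the within-sort values were -0.50 in sorted and 0.03 in unsorted mice, and the call was lost without WT 1 or without WT 2 (-0.19 each).

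Ptpn2 was at 39.9, 41.4, 28.5, 35.5 and 28.1 CPM in quiescent DP-like cells and at 68.1, 75.7, 68.2, 77.2 and 62.5 in mature SP-like cells of the same mice. Those ranges did not overlap, and the difference was 0.98 (SE 0.12, edgeR adjusted p = 6.4e-10). In signaled DP-like cells its difference was 0.48 (SE 0.12), higher in 5 of 5 mice with overlapping ranges. The highest median among classes was in NKT-like cells, at 108, 81.6, 81.6, 88.7 and 33.2.

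Ptpn22 followed another course. It stood at 110.2, 113, 116, 81.6 and 106 CPM in quiescent DP-like cells and at 39.3, 51.7, 33.2, 24.5 and 34.7 in CD4 SP-like cells, 2.76-fold lower (log2 fold change -1.47, SE 0.12, edgeR adjusted p = 7.3e-16). In CD8 SP-like cells it was 128, 131, 108, 82.4 and 112, and that class did not pass the test against quiescent DP-like cells (0.11, SE 0.10, adjusted p = 0.34), although with total UMIs as the scale it was called lower (-0.29, SE 0.10, adjusted p = 0.0099). CD8 SP-like cells exceeded signaled DP-like cells in Ptpn22 by 0.56 (SE 0.10), or by 0.24 with total UMIs and no call, and 3 of the 7 genes were called in that contrast against 44.8% of all genes. The single gamma-delta T-like sum, from 10 cells of WT 2, the fewest that a sum could hold, was at 223.

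Ubash3a was higher in CD4 SP-like cells, at 38.1, 41.5, 34.6, 30.5 and 29.7 CPM, than in quiescent DP-like cells, at 23.4, 15.5, 7.13, 17.9 and 16.05. The ranges did not overlap, and the difference was 0.93 (SE 0.17). The signaled DP-like class did not pass the test (0.34, SE 0.18, adjusted p = 0.13). NKT-like cells were lower than quiescent DP-like cells (-0.89, SE 0.37, edgeR adjusted p = 0.039), lower in 3 and higher in 2 of 5 mice with overlapping ranges, with -0.46 in sorted mice (adjusted p = 0.47) and -1.85 in unsorted mice. The call was lost without WT 1, WT 3, WT 4 or WT 5, at -0.84 to -0.70. WT 5 had no Ubash3a UMI among 49 NKT-like cells, where 3 UMIs would have given 13.8 CPM of its unscaled total.

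Cbl differed in the opposite sense to Cblb. Cbl was at 295, 308, 271, 519.5 and 559 CPM in quiescent DP-like cells, 195, 209.6, 209, 386 and 441 in signaled DP-like cells and 89.9, 91.6, 100.3, 106 and 181 in mature SP-like cells. Every mouse was lower at each of these steps, and unsorted mice were above sorted mice within each class. The first difference was -0.47 (SE 0.11, edgeR adjusted p = 0.00021) and the mature class was 3.45-fold below the quiescent class (-1.79, SE 0.12), with -1.68 in sorted and -1.97 in unsorted mice.

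Cblb was at 8.24, 10.4, 16.6, 11.7 and 19.0 CPM in quiescent DP-like cells and at 12.3, 18.7, 17.01, 13.1 and 23.0 in the signaled class, a difference of 0.45 (SE 0.19, edgeR adjusted p = 0.048) that neither sort passed alone (0.57 with adjusted p = 0.16, and 0.20 with adjusted p = 0.64). It was also lost with total UMIs (0.39) and without WT 1, WT 2, WT 3 or WT 4, at 0.28 to 0.46. Negative selection-like cells, marked by Pdcd1, Bcl2l11, Nr4a1, Nr4a3, Gadd45b and Ikzf2, held 25.9, 43.6, 38.4, 49.7 and 85.7. All 5 mice were above every signaled DP-like value. This was 2.85-fold above signaled DP-like cells (1.51, SE 0.18, edgeR adjusted p = 3.4e-10), 1.17 in sorted and 1.92 in unsorted mice, in a contrast where 4 of the 7 genes were called against 32.5% of all genes.

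Treg-like cells had the highest Cblb of the classes with 5 mice, at 40.7, 47.5, 42.0, 58.1 and 101 CPM, 4.69-fold above quiescent DP-like cells (2.23, SE 0.17, edgeR adjusted p = 8.2e-18). Against mature SP-like cells, the nearest comparison for stage, 3 of the 7 genes were called, all higher in Treg-like cells, where 14.3% of all genes were called. They were Cblb (0.95, SE 0.16, edgeR adjusted p = 1.6e-05), Ptpn22 (0.59, SE 0.11) and Ubash3a (0.53, SE 0.18, adjusted p = 0.039). Each was higher in 5 of 5 mice, and of these only Ptpn22 had ranges that did not overlap. Ptpn2 (-0.36, SE 0.13, adjusted p = 0.057), Ptpn6 (-0.11, SE 0.11) and Csk (-0.15, SE 0.10) were lower in 5 of 5 mice but were not called by edgeR, and the Ptpn2 ranges, 48.8 to 61.4 and 62.5 to 77.2, did not overlap. In sorted mice the 3 differences were 0.86, 0.54 and 0.57, and in unsorted mice 1.07, 0.61 (adjusted p = 0.11) and 0.36 (adjusted p = 0.73). The Ubash3a call was lost without WT 1, WT 2, WT 3 or WT 4, at 0.40 to 0.61.

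**Figure D1:**
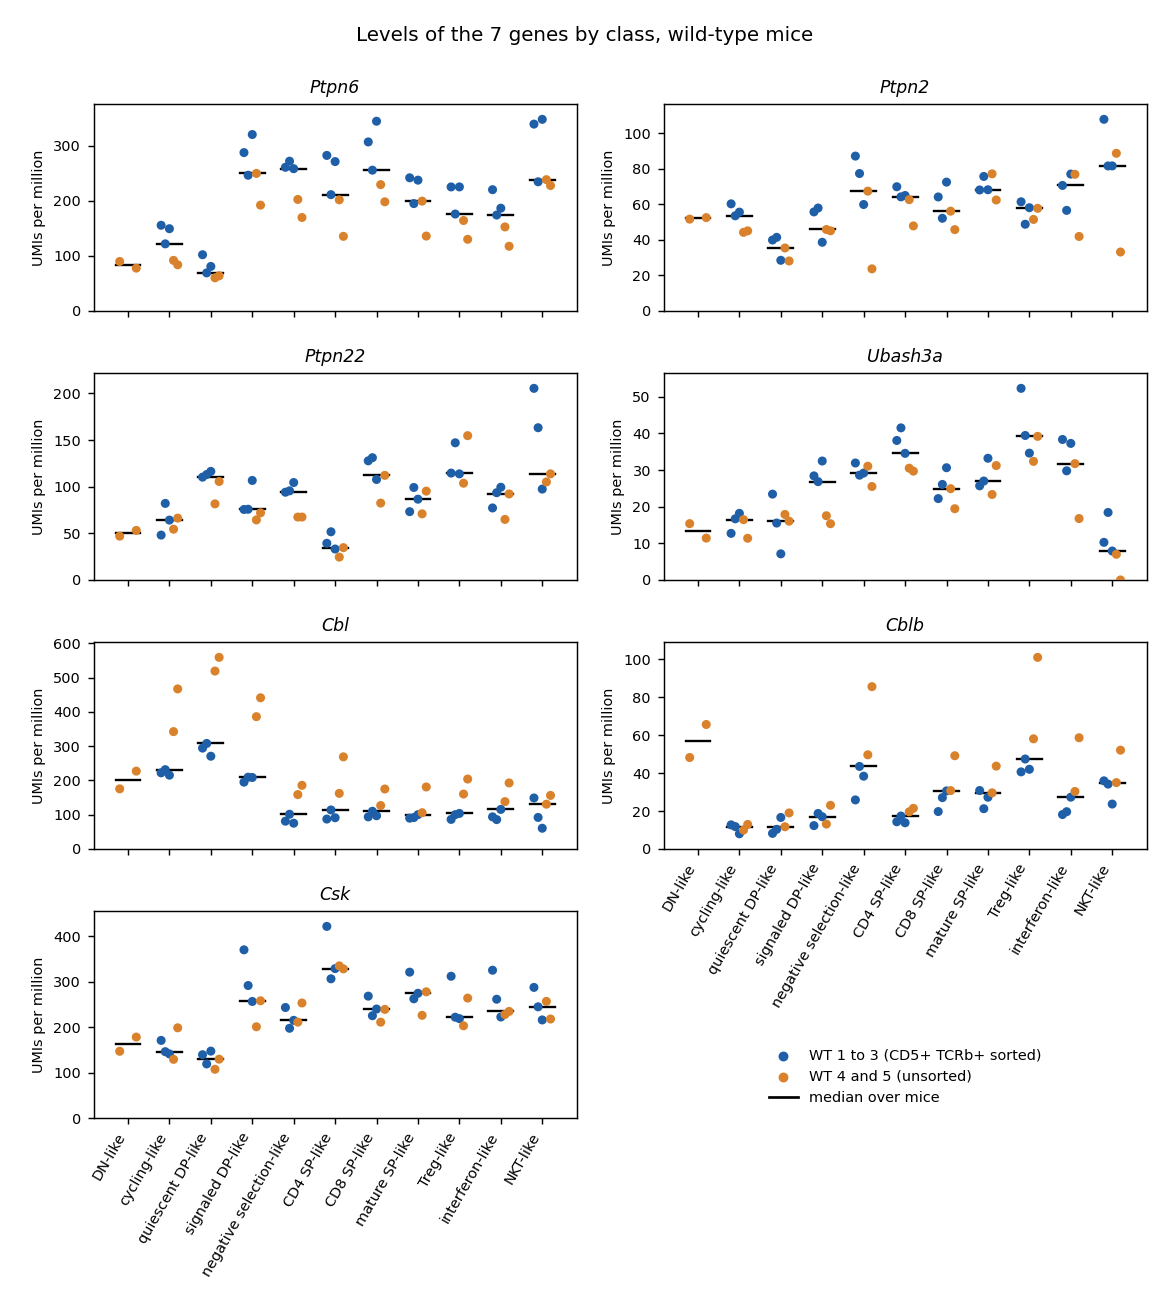
CPM (vertical axes, linear, TMM-scaled) of the 7 genes in each class of wild-type thymocytes (horizontal axes), with 1 point per mouse, blue for the 3 sorted and orange for the 2 unsorted mice, and a black line at the median. Ptpn6 and Csk step up from quiescent to signaled DP-like cells without overlap, Cbl steps down from a quiescent median of 308, and Cblb peaks in DN-like, Treg-like and negative selection-like cells.

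The plot of levels by class shows how far the order can be read. With classes ranked by median level, nearly all neighbours overlapped in their ranges over mice. The exceptions were negative selection-like above myeloid-like cells for Csk and CD8 SP-like above cycling-like cells for Ubash3a. DN-like cells reached the 10 cells needed for a sum in WT 4 and 5 only (1, 9 and 7 cells in the sorted WT 1 to 3) and held 48.3 and 65.7 CPM of Cblb, and 1.93 more than quiescent DP-like cells on the log2 scale (SE 0.19). In the other contrasts with quiescent DP-like cells, 7 of 7 were called in CD4 SP-like, mature SP-like, Treg-like, negative selection-like, NKT-like and interferon-like cells (background 49.6%, 51.6%, 46.8%, 54.6%, 48.9% and 48.0%), 6 of 7 in CD8 SP-like and DN-like cells (59.9% and 59.3%) and 5 of 7 in cycling-like cells (64.4%). With total UMIs the calls of Cblb in CD4 SP-like, Ubash3a in mature SP-like and CD8 SP-like, Ptpn22 in NKT-like, Ptpn2 in Treg-like and cycling-like, Ptpn6 in DN-like and Csk in DN-like and cycling-like cells were lost, and Ptpn22 in Treg-like cells went from 0.29 to -0.051, with no call. Calls gained were Ptpn22 in CD8 SP-like cells (-0.29) and Cblb (-0.52) and Ubash3a (-0.57) in cycling-like cells. In mature SP-like against signaled DP-like cells 4 of 7 were called (39.3%).

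The same pathway held other genes that moved in these classes. Of 31 other negative regulators, 30 were tested in signaled against quiescent DP-like cells, and 11 were higher, 8 lower and 11 not called (median 0.15, against -0.00 over all genes). Ubash3b, the paralog of Ubash3a, rose by 2.60 (SE 0.35) and Spry1, an inhibitor of Ras signaling, by 1.66 (SE 0.38), and Socs3, an inhibitor of cytokine receptors, fell by 4.57 on the log2 scale (SE 0.41). Of 21 genes of proximal activating signaling, 8 were higher, 5 lower and 8 not called (median 0.10), with Fyn, a Src-family kinase, at 1.497 (SE 0.09) and Themis, needed for positive selection, at -1.39 (SE 0.12). In Treg-like against mature SP-like cells the first list gave 6 higher and 5 lower of 30, led by Cish at 3.17 (SE 0.32), and the second gave 1 higher and 2 lower of 21.

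The second comparison split cells by surface protein alone. Among CD4+CD8+ cells gated by antibody, the 25% with the most CD69 protein, a marker that TCR signals induce, were compared with the 25% with the least in the same mouse, and CD5 protein, which scales with TCR signal strength, was used in the same way. CD69-high cells had more Ptpn6, Csk, Cblb, Ubash3a and Ptpn2 RNA and less Cbl RNA, and the CD5 split gave the same 6 calls in the same directions. Ptpn22 was called in neither. The background was 51.4% of 10044 genes for CD69 (25.8% higher, 25.7% lower) and 61.1% of 10201 genes for CD5 (31.3% higher, 29.8% lower).

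Over the 17 mice Ptpn6 had a lowest, median and highest level of 75.5, 125 and 238 CPM in CD69-low and of 106, 247 and 338 in CD69-high cells. It was higher in 17 of 17 mice, by 0.76 (SE 0.10, edgeR adjusted p = 1.7e-06). Csk went from 118, 160.02 and 255 to 126, 268 and 349, was higher in 16 of 17 mice and differed by 0.59 (SE 0.08, edgeR adjusted p = 3.4e-06). Both moved in the direction seen in the RNA-defined classes, which share cells with this split. Ranges overlapped between mice, but few mice went against the trend. In the wild-type mice alone Csk was not called for CD69, as given below.

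Cbl was at 183, 269 and 551 CPM in CD69-low and 146, 200.1 and 523 in CD69-high cells, lower in 15 of 17 mice (-0.38, SE 0.08, edgeR adjusted p = 0.00024). Cblb was at 7.24, 11.9 and 25.6 and then 9.77, 17.9 and 24.99, higher in 13 of 17 (0.47, SE 0.13, adjusted p = 0.0043). Ubash3a differed by 0.40 (SE 0.08) and Ptpn2 by 0.32 (SE 0.08), each higher in 15 of 17 mice. Ptpn22 was at 68.2, 84.0 and 124 and then 59.8, 84.5 and 140.4, higher in 7 of 17 mice (-0.05, SE 0.06, adjusted p = 0.79).

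For CD5 the differences were 0.70 for Csk (SE 0.08), 0.68 for Cblb (SE 0.13), 0.66 for Ptpn6 (SE 0.08), 0.46 for Ubash3a (SE 0.10), 0.35 for Ptpn2 (SE 0.07) and -0.29 for Cbl (SE 0.07, edgeR adjusted p = 0.0012). Ptpn6 and Csk were higher in 17 of 17 mice. Ptpn22 was at 0.06 (SE 0.08, adjusted p = 0.55).

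**Figure D2:**
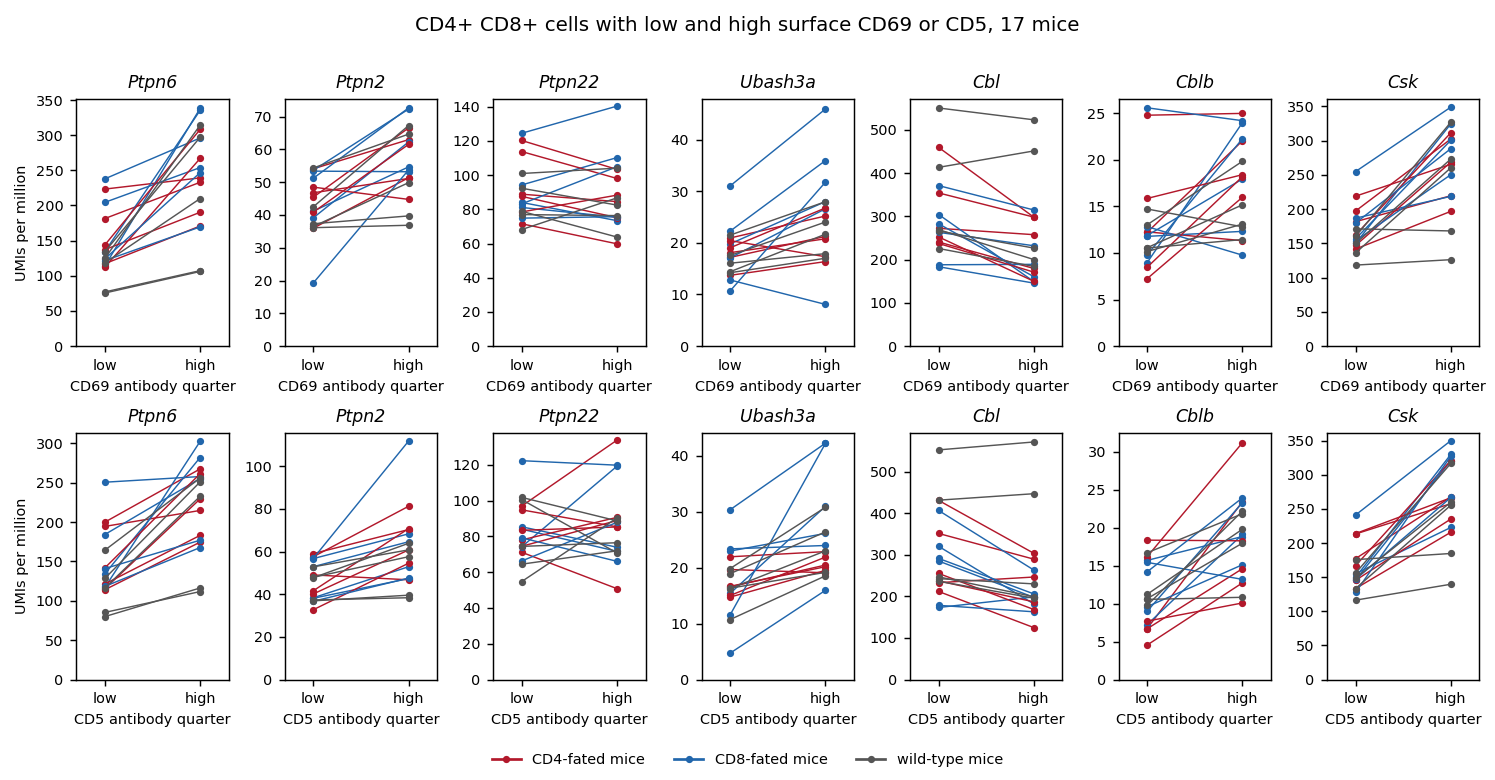
CPM (vertical axes, linear) of the 7 genes in CD4+CD8+ cells with the 25% lowest and 25% highest levels of CD69 (top row) or CD5 antibody (bottom row), 1 line per mouse (17 mice), red for CD4-fated, blue for CD8-fated and gray for wild-type mice. Most lines rise for Ptpn6 and Csk (17 and 16 of 17 for CD69) and fall for Cbl (15 of 17), and for Ptpn22 7 rise.

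The gate used CD4 and CD8 antibody alone. The paper reports that in CD8-fated mice the DP gate also takes in later cells, which it calls DP3. These were not set apart here. The makeup of the high and low cells differed too. Signaled DP-like cells were a median of 32.3% of the CD69-high and 6.41% of the CD69-low cells, and for CD5 the medians were 44.3% and 2.55%. Quiescent DP-like cells were a median of 4.35% of the CD69-high and 30.6% of the CD69-low cells, but in WT 4 and WT 5 they still made up 52.3% and 48.6% of the CD69-high cells. In F5 2 only 7.60% of the CD69-high cells were signaled DP-like and 2.19% quiescent DP-like. High and low hold within a mouse only, and WT 1 to 3 and the MHC-deficient mice had been sorted on CD5. The mean CD5 per 10000 antibody UMIs was 750 and 901 in CD5-high cells of WT 4 and WT 5. It was 668, 767 and 441 in CD5-low cells of WT 1 to 3. Depth moved with the split in some mice. The median UMIs per cell were higher at the CD5-low end in 12 of 17 mice, by over 1.5 times in 5, and most in WT 3 (9483 against 2584.5, 3.67 times), and at the CD69-low end in 10 of 17, by over 1.5 times in 2. The part of depth and makeup in the differences was not tested apart from the alternatives given here. Without the cycling-like and DN-like clusters, an alternative added after the data had been seen, Ptpn22 was called lower in CD69-high (-0.38) and CD5-high cells (-0.33), while Ubash3a lost its calls (0.18 and 0.13) and Cblb its call for CD69 (0.30, adjusted p = 0.067). In the 5 wild-type mice alone 1 of 7 genes was called for CD69 (Ptpn6), against 23.2% of all genes, and 3 of 7 for CD5, against 32.3%. Among the other negative regulators 27 were tested, and 14 were higher and 4 lower in CD69-high cells (median 0.30, against 0.01 over all genes), with Ptpn12, a phosphatase, at 1.09 (SE 0.12). Of the 21 activating genes 15 were higher and 3 lower (median 0.28).

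The third comparison followed positive selection. Cells from the signaled DP-like to the mature SP-like clusters were ordered by a pseudotime made without the 7 genes and without both pathway lists, and cut into 5 windows of equal cell number, from early (window 1) to late (window 5). It used 26218 cells, 7959 CD4-fated, 10353 CD8-fated and 7906 wild-type, in 84 sums of 50 to 694 cells. Of 26639 ordered cells, 421 of lineage-restricted mice that lay on the branch opposite to their genotype were left out, and with them kept all 35 lineage tests of the 7 genes had the same direction and side of the threshold. Cbl fell from window 1 to window 5 in both lineages, and Cblb and Ptpn22 rose by TMM scaling. By the same scaling Ptpn6 was called lower at the end in CD4-fated mice and Csk in CD8-fated mice, and the test of the difference between lineages is given below with the lineage-by-window term. With total UMIs the median of all genes shifted by -0.37 (CD4-fated) and -0.30 (CD8-fated), the rises of Ptpn22 in both lineages (0.095 and 0.26) and of Cblb in CD4-fated mice (0.27) were not called, and Ptpn6 (-0.94 and -0.35) and Csk (-0.46 and -0.70) were called lower in both.

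Cbl lay between 171 and 326 CPM in window 1 and between 75.8 and 141 in window 5 of the 6 CD4-fated mice. It was lower in 6 of 6, by 1.99-fold (-0.995, SE 0.10, edgeR adjusted p = 1.5e-11). In the 5 CD8-fated mice with both windows it lay between 161 and 263 in window 1 and between 79.8 and 172 in window 5, lower in 5 of 5 (-0.95, SE 0.10, adjusted p = 5.6e-10). F5 replicate 2 had 3 cells in window 5 and no sum there. The called step in CD4-fated mice was from window 1 to 2 (-0.70, SE 0.09). WT mice were lower in window 5 in 5 of 5.

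Cblb rose by 0.65 in CD4-fated (SE 0.21, edgeR adjusted p = 0.012) and 0.79 in CD8-fated mice (SE 0.16) between the same windows, higher in 4 of 6, 4 of 5 and, for wild-type mice, 5 of 5. The CD4-fated call was lost without MHCI-/- 1 (0.49) or OT-II 1 (0.33). The single step that was called was window 3 to 4 in CD8-fated mice (0.69, SE 0.14). Ptpn22 rose by 0.47 (SE 0.13, adjusted p = 0.0036) and 0.57 (SE 0.13), higher in 6 of 6 CD4-fated, 4 of 5 CD8-fated and 4 of 5 wild-type mice. Its called step was also window 3 to 4, 0.38 in CD4-fated (SE 0.13, adjusted p = 0.036) and 0.47 in CD8-fated mice (SE 0.11). It was higher in 4 of 6 CD4-fated mice, lower in both OT-II mice, and higher in 6 of 6 CD8-fated mice. The CD4-fated step was not called with total UMIs (0.25) or without AND 1, AND 2, MHCI-/- 1 or MHCI-/- 2, at 0.22 to 0.44.

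Ptpn6 in CD4-fated mice went from 273 to 156 (AND 1), 337 to 206 (AND 2), 224 to 177 (MHCI-/- 1), 290.1 to 196 (MHCI-/- 2), 198 to 137 (OT-II 1) and 193 to 147 CPM (OT-II 2) between window 1 and window 5. It fell in 6 of 6 (-0.56, SE 0.09, edgeR adjusted p = 8.4e-07), and its called step was the last (-0.45, SE 0.08). In CD8-fated mice it went from 287 to 320.4 (F5 1), 336 to 288 (MHCII-/- 1), 333 to 305 (MHCII-/- 2), 246 to 239 (OT-I 1) and 209.5 to 231 (OT-I 2), with a dip from window 1 to 2 (-0.37, SE 0.07) and no call from first to last (-0.06). Csk was lower at the end in 5 of 5 CD8-fated mice (-0.41, SE 0.09, edgeR adjusted p = 0.0002), where window 5 was at 211 to 263 and window 1 at 269 to 331 without overlap, and differed by -0.09 in CD4-fated mice.

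**Figure D3:**
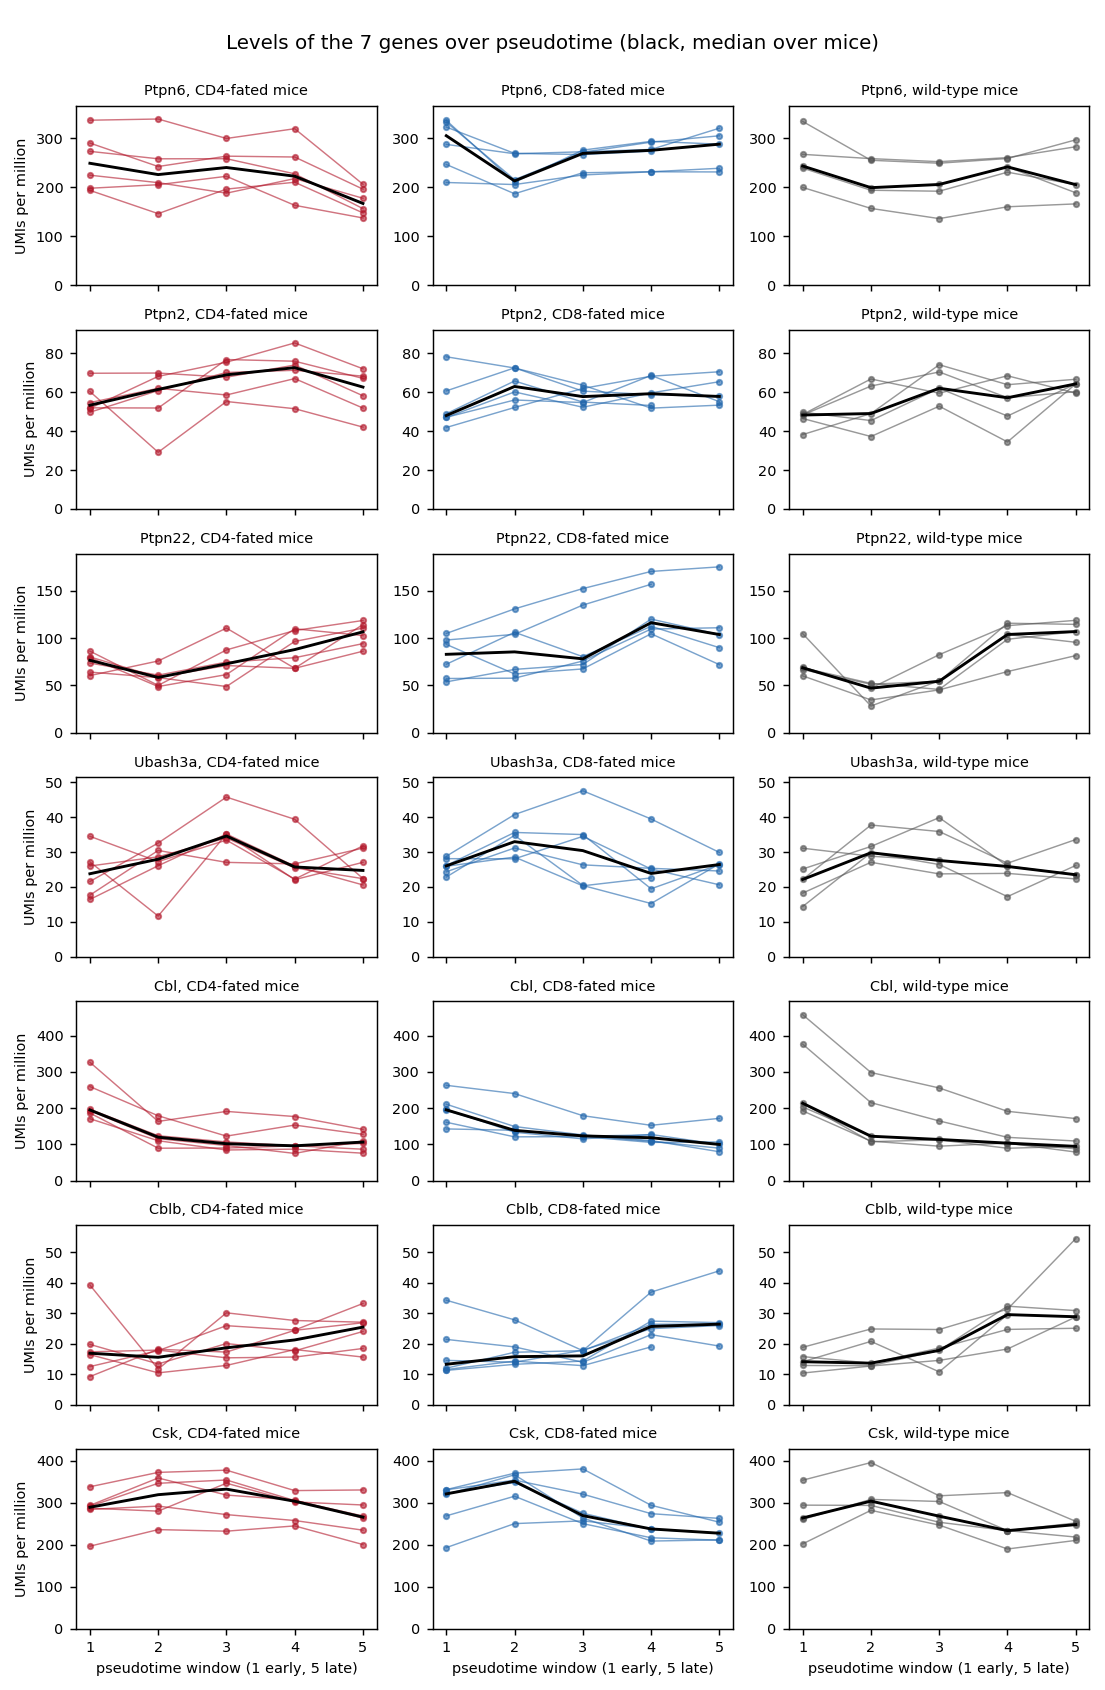
CPM (vertical axes, linear) of the 7 genes in the 5 pseudotime windows (horizontal axes) of CD4-fated (red), CD8-fated (blue) and wild-type mice (gray), 1 line per mouse and a black line for the median. Cbl descends in all 3 columns, Ptpn22 climbs from window 3 to 4 except in both OT-II mice, and Ptpn6 drops in window 5 of CD4-fated mice to between 137 and 206.

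Over any window, 7 of 7 genes changed in CD4-fated mice (46.3% of 8733 genes) and 6 of 7 in CD8-fated mice (63.5% of 9597), Ptpn2 being the exception (adjusted p = 0.43). With total UMIs the call of Cblb in CD4-fated mice was lost (adjusted p = 0.54) and Ptpn2 in CD8-fated mice was called (adjusted p = 0.047). The calls over any window of Cblb, Ptpn2 and Ubash3a in CD4-fated mice and of Ubash3a in CD8-fated mice were each lost when 1 of 2 to 4 mice was left out, among them MHCI-/- 2 for all 3 in CD4-fated mice. From first to last 4 of 7 were called in each (40.4% and 55.1%). By steps 1, 0, 1 and 1 of 7 were called in CD4-fated mice (9.73%, 7.86%, 13.7% and 2.86%), and 2, 0, 3 and 1 of 7 in CD8-fated mice (10.4%, 8.41%, 17.3% and 20.8%). Of the latter, the steps of Csk from window 3 to 4 (-0.23) and of Cbl from window 4 to 5 (-0.28) were lost without single mice, among them MHCII-/- 1, MHCII-/- 2 and OT-I 1 for both, at -0.26 to -0.19. At the 2 steps with 0 calls by edgeR, from window 2 to 3, 1 and 3 genes had an unadjusted p under 0.05, and DESeq2 was not run there. Among the other negative regulators 4 were higher and 11 lower of 26 in CD4-fated mice (median -0.20), and 8 higher and 15 lower of 28 in CD8-fated mice (median -0.48). Rasa3, a Ras GTPase-activating protein, rose by 3.57 (SE 0.20) and 2.86 (SE 0.22), and Sla, an adaptor that lowers surface TCR, fell by 2.28 (SE 0.10) and 2.11 (SE 0.12) on the log2 scale. Of the 21 activating genes 4 rose and 6 fell in CD4-fated, and 3 rose and 12 fell in CD8-fated mice.

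The fourth comparison set CD4-fated against CD8-fated mice within a window, with a term in the fit for each pair of lines (F5 beside AND, OT-I beside OT-II and the MHC knockouts beside each other). Ptpn22 was lower in CD4-fated mice in window 4 and Ptpn6 was lower in CD4-fated mice in window 5, and no other member was called in any window. Thus 0, 0, 0, 1 and 1 of 7 were called in windows 1 to 5, against 0.0902%, 1.11%, 3.93%, 6.23% and 21.8% of all genes. In windows 1, 2 and 3, with 0 calls by edgeR and by DESeq2, 0, 1 and 1 genes had an unadjusted p under 0.05. With same-numbered mice of a pair of lines as a block, 11, 626 and 895 genes were called in windows 1, 3 and 4 in place of 7, 334 and 547. The members called, 2 of 35 tests, were again Ptpn22 in window 4 (-0.54, SE 0.12, edgeR adjusted p = 0.013) and Ptpn6 in window 5 (-0.75, SE 0.10, adjusted p = 0.0001).

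In window 5 Ptpn6 stood between 137 and 206 CPM in the 6 CD4-fated and between 231 and 320.4 in the 5 CD8-fated mice, without overlap. It was 1.64-fold lower (-0.72, SE 0.13, edgeR adjusted p = 0.0012). In window 4 Ptpn22 was at 79.3 and 108 (AND), 109.8 and 96.5 (MHCI-/-) and 68.1 and 68.2 (OT-II), and at 170.3 and 157 (F5), 120.1 and 109.6 (MHCII-/-) and 105 and 112 CPM (OT-I). The ranges overlapped, and the difference was -0.53 (SE 0.14, edgeR adjusted p = 0.03). That call was lost when any 1 of 7 mice was left out, where it lay between -0.57 and -0.44. They were AND 1, AND 2, F5 1, F5 2, MHCI-/- 2, MHCII-/- 1 and OT-II 1. Without the term for the pairs of lines, or without AND and F5, 1 of the 35 tests of the 7 genes was called in place of 2. F5 2 had 340 cells in window 4 but only 113 signaled DP-like and 60 CD8 SP-like cells in all. Many of its window 4 cells were therefore of unnamed clusters, and their part in the Ptpn22 value was not tested.

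Other cells and stages moved with these differences. The 7 cycling markers summed to a median of 746 CPM in window 5 of CD8-fated mice (10.5 to 2234) and 27.5 in CD4-fated mice (15.6 to 57.0), and the 6 signaled DP markers to 962 in window 4 of CD4-fated mice (810.1 to 1111) and 529 in CD8-fated mice (347 to 659). Myeloid markers lay between 39.7 and 211 over all windows and lineages. In window 5 the 5 B cell markers, of which 1 to 4 were detected in a mouse, summed to 18.7 to 44.1 in CD8-fated and 1.82 to 7.88 in CD4-fated mice, without overlap. The 5 erythrocyte markers reached 2820.2 in window 4 of OT-II 2 and 1059 in window 5 of OT-I 1, with medians of 8.89 and 0.423 in those windows and lineages. The part of all these markers in the differences of Ptpn6 and Ptpn22 was not tested. Ptpn6 in window 5 was not called when the order was made without correction for experiment (-0.66, adjusted p = 0.17) or without the MHC-deficient mice (-0.76, adjusted p = 0.092). Without the OT lines 8 of 35 member tests were called in place of 2, against 11.7% of the tests of all genes in the 5 windows.

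The lineage difference itself changed between windows for 2 of the 7 genes, Ptpn6 (lineage-by-window term, edgeR adjusted p = 1.59e-06) and Csk (adjusted p = 0.012), against 27.7% of 9844 genes. The Csk term was not called with total UMIs as the scale, with the maturation order, or without MHCII-/- 1 (adjusted p = 0.079), MHCII-/- 2 (0.057) or OT-II 1 (0.056). For Cbl the adjusted p was 0.07 and for Ptpn22 0.098. In window 5, 6 of 27 other negative regulators differed (4 higher, 2 lower in CD4-fated mice), with Nedd4, an E3 ubiquitin ligase, at -2.74 (SE 0.35). Of 21 activating genes 5 were higher and 0 lower, among them Rasgrp1 at 0.73 (SE 0.15) and Cd247 at 0.65 (SE 0.14).

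The fifth comparison asked a like question in wild-type mice, setting late cells of the CD4 branch against late cells of the CD8 branch of the same 5 mice. Stage was not matched here. The CD4-branch sub-clusters had median places of 0.77 and 0.80 in the order of cells, where 1 is the latest. Those of the CD8 branch had 0.53, 0.56, 0.82 and 0.98. In wild-type mice the 7 cycling markers summed to a median of 539 CPM in window 5 (48.7 to 1512) and 48.5 in window 4. These windows hold both branches, and the markers were not summed by branch. The part of stage and of cycling cells in the differences was not tested. Ptpn6 and Ptpn22 were called lower on the CD4 side, and Csk was called higher. Of the 7 genes 3 were called against 30.0% of 9372 genes, with the mouse as a term in the fit. Without that term 0 of 7 were called by edgeR, against 439 of 8591 genes, and 1 of the 7 had an unadjusted p under 0.05.

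Ptpn6 stood at 211, 174, 213, 186 and 128 CPM on the CD4 branch and at 274, 217, 296, 200.2 and 175 on the CD8 branch of WT 1 to 5. It was lower in 5 of 5 mice (-0.34, SE 0.07, edgeR adjusted p = 0.00018). Ptpn22 stood at 72.9, 87.4, 77.1, 67.8 and 81.4 against 109, 114, 96.9, 71.5 and 106, also lower in 5 of 5 (-0.35, SE 0.08, adjusted p = 0.0014). In both genes the ranges overlapped across mice.

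Csk was at 297, 225, 244, 190.1 and 238 against 234, 191, 207, 184 and 215 CPM, higher in 5 of 5 mice (0.21, SE 0.06, edgeR adjusted p = 0.0094). Its call was lost without WT 1 (0.17), without WT 2 (0.20), with total UMIs and by DESeq2. Within the sorted mice the differences were -0.40 for Ptpn6, -0.42 for Ptpn22 and 0.25 for Csk, and within the 2 unsorted mice they were -0.25 (adjusted p = 0.3), -0.21 (adjusted p = 0.51) and 0.09 (adjusted p = 0.78), with no call. Ptpn2 was just outside (0.26, SE 0.10) and was called without WT 3 (0.36), and Cbl, Cblb and Ubash3a were at -0.07, -0.09 and 0.08. Among the other negative regulators 10 were higher and 5 lower of 27, with Nedd4 at -1.77 (SE 0.14), and among the activating genes 7 were higher and 3 lower of 21.

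**Figure D4:**
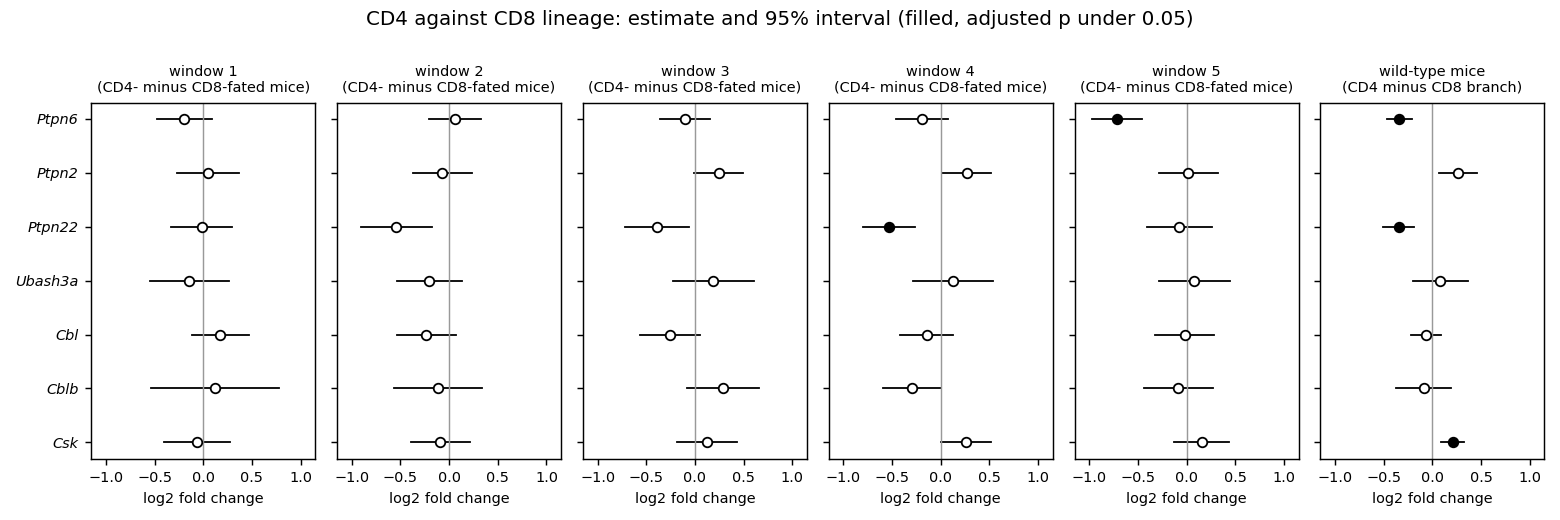
Log2 fold change (horizontal axes) of each gene between CD4-fated and CD8-fated mice in windows 1 to 5 and between the CD4 and CD8 branches of wild-type mice, with the estimate (point) and its 95% interval (1.96 SE), filled where called. Filled points are Ptpn22 in window 4 (-0.53), Ptpn6 in window 5 (-0.72) and Ptpn6, Ptpn22 and Csk in wild-type mice.

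Between single genotypes of a family, with 2 mice each except 1 F5 mouse in window 5, 0 of 105 tests of the 7 genes were called by edgeR while the background in windows 1 to 5 was 0.0592%, 2.17%, 2.6%, 2.59% and 0.924% for AND against F5, 0.0592%, 0.443%, 1.55%, 1.37% and 7.4% for MHCI-/- against MHCII-/- and 0.438%, 0.506%, 0.387%, 1.02% and 7.75% for OT-II against OT-I. Of the 105, 10 had an unadjusted p under 0.05. DESeq2 was not run there. The values of 4 of the 10 were of Ptpn22 in AND against F5, which was -1.10 in window 2 (SE 0.30, edgeR adjusted p = 0.066), -0.82 in window 3, -0.79 in window 4 and, against the single F5 mouse, -0.70 in window 5. The window 2 value was called without OT-I 1 or without OT-I 2 (adjusted p = 0.03 and 0.028). The 2 AND mice held 60.9 and 50.1 CPM of Ptpn22 in window 2, and the 2 F5 mice 131 and 104. F5 2 had 506 cells in window 2 but only 113 signaled DP-like and 60 CD8 SP-like cells in all. Most of its cells in window 2 were therefore of unnamed clusters, and their part in the Ptpn22 difference was not tested. Ptpn6 in window 5 was at -0.72 for OT-II against OT-I and -0.66 for MHCI-/- against MHCII-/-, with adjusted p of 0.16 and 0.2 by edgeR, and at -0.81 for the AND mice against 1 F5 mouse (adjusted p = 0.47). All 7 genotypes shared 1 estimate of the spread in each window, so the tests against the lone F5 mouse assume that it varies like the other groups.

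Across the 59 sums of mouse and class in wild-type mice, Pearson correlations of log2 levels describe which genes ran together. These sums share mice, depth and cell classes. Ptpn6 and Csk had r = 0.67, Ptpn2 had 0.58 with Ptpn6 and 0.54 with Csk, and Cbl had -0.66 with Ptpn2, -0.64 with Ptpn6 and -0.53 with Csk. Ptpn22 and Ubash3a had values between -0.20 and 0.28 with every other member. Among 5909 genes, those most like a member were Ano6 (0.89) and Edem1 (0.88) for Cbl, Myl6 (0.84) and Capzb (0.83) for Ptpn6, Xylt2 (0.82) and Gm9844 (0.81) for Csk, Eef1a1 (0.78) and Rpsa (0.77) for Ptpn2, Zfp1 (0.77) and Siah1a (0.75) for Ubash3a, Akna (0.72) and Rab8b (0.70) for Cblb, and Cd96 (0.70) and Peli1 (0.69) for Ptpn22.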

How the data were processed

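Per the labels and the study's methods, the authors counted RNA and antibody UMIs with Cell Ranger 3.1.0 (submitters' processing notes) against mm10 and deposited raw counts for each lane. Cells with at least 200 genes, at most 15% mitochondrial UMIs, 1000 to 10000 protein UMIs and at least 70 proteins numbered 72054, from which 2811 doublets (3.90%) scored by simulation were removed. For the clusters, principal components were corrected for lane group and clustered with leidenalg 0.10.2. Lane groups were the experiments, with the experiment of the OT lines split into lanes that differed in depth. For the order of cells, components were corrected for experiment, and cells were ordered by diffusion pseudotime. Clusters and order were made without the 7 genes and both pathway lists. The lane-group order named below is an alternative with the lane-group correction used for the order too. The ordered clusters were 8 named from signaled DP-like to mature SP-like and 2 unnamed ones nearest CD8 SP-like. The unnamed ones held 2361 and 2207 of the 26639 ordered cells. They were 1.48% and 26.6% wild-type, and 47.7% of the first came from 1 lane. The paper left out outlier cells specific to CD8 transgenic mice, and the order here had no such step. The CD4+CD8+ gate was 300 per 10000 antibody UMIs for each protein.

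Counts were summed over the cells of a mouse in a class or window (at least 10 cells), adding the 2 lanes of WT 4 and of WT 5. The mouse was the replicate. edgeR 4.0.16 in R 4.3.3 (TMM, filterByExpr, quasi-likelihood) gave p-values adjusted over all genes, and DESeq2 1.42.0 was an alternative. The window 4 lineage fit and the paired CD69 fit were also run on simulated counts with known changes, and the outcome is not given here. The mouse was a term in the class, protein and branch fits, where groups came from the same animals. The intervals are the estimate plus and minus 1.96 SE. The 7 genes and the lists (31 other negative regulators, 21 proximal activating genes) were chosen with earlier results of these data known. All 7 genes are named throughout, with at most 4 called genes of a list per comparison, those of largest change, and the 2 genes most correlated with each member.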

Additional observations from a re-analysis of the deposited data

Results flagged for a closer look

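Of 182 sets of 4 to 6 mice tested for 1 value far from the rest, 16 held such a value by Dixon's ratio, and chance gives about 1 in 20. In wild-type classes Cbl was at 181 CPM in mature SP-like cells of WT 5, where the other mice held 89.9 to 106. Cblb was at 101 in Treg-like cells of WT 5, against 40.7 to 58.1. Csk was at 422 in CD4 SP-like cells of WT 1, against 307 to 335. Ptpn22 was at 107 in signaled DP-like cells of WT 3, against 64.4 to 75.8. Ubash3a was at 46.3 in myeloid-like cells of WT 2, which is 4 UMIs, against 0 to 6.77 in the other mice.

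In the windows of wild-type mice Cblb was at 54.5 CPM in window 5 of WT 5, against 25.1 to 30.9. Csk was at 396 in window 2 of WT 1, against 282 to 308. Ptpn22 was at 105 in window 1 of WT 3, against 60.1 to 69.5, and at 82.5 in window 3 of WT 2, against 45.4 to 55.0. Ptpn2 was at 38.3 in window 1 of WT 3, below 46.5 to 49.8 in the others.

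In the lineage-restricted mice OT-I 2 stood above the other CD8-fated mice in Cbl, at 240.1 CPM in window 2 (others 121 to 149) and 179 in window 3 (others 115 to 126). OT-II 2 stood above the other CD4-fated mice in Cbl in window 3, at 191 (others 84.6 to 123), and in Cblb in window 1, at 39.3 (others 9.21 to 19.8). Its Ubash3a was low in window 2, at 11.7 from 2 UMIs (others 26.1 to 32.6). Ubash3a was at 39.4 in window 4 of MHCI-/- 2, against 22.1 to 26.6. All flagged values of Cbl and Cblb were high values of OT-I 2, OT-II 2 or WT 5, which form 1 lane group. Their lanes had median depths of 1490 to 3140 UMIs per cell. The lanes of OT-I 1, OT-II 1 and WT 4 had 2775.5 to 7145. Mouse, lane group and depth cannot be told apart there.

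The difference between lineages itself differed between windows for Ptpn6 (lineage-by-window term, edgeR adjusted p = 1.59e-06) and for Csk (adjusted p = 0.012), as described above.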

How the results depend on the processing

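Depth limits Cblb, Ubash3a and Ptpn2 most, since their sums often rest on few UMIs. Between WT 1 to 3 and WT 4 and 5, sort, experiment and site cannot be told apart, the OT lines lie within 1 experiment, and each lineage-restricted genotype has 2 mice. The windows depend on how cells were ordered, and the number of genes called with them. Of the values of the 7 genes under alternatives other than leaving out a mouse, 1579 kept their direction and side of the threshold, 118 lost a call, 36 gained one, 38 without a test moved and 7 turned. With 1 mouse left out the numbers were 2903, 70, 14, 23 and none turned. The cause of each change below was not tested. Left-out families, sorted or unsorted mice only, wild-type mice only, the lane-group order, the removed sub-clusters and the removed cycling-like and DN-like clusters were chosen after seeing the data.

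With total UMIs in place of TMM the median of all genes shifted by -0.42 in mature SP-like against quiescent DP-like cells, by -0.37 from window 1 to 5 in CD4-fated and by -0.30 in CD8-fated mice. There Ptpn22 turned from 0.11 to -0.29, a call in the other direction, in CD8 SP-like and from 0.29 to -0.051 in Treg-like cells, and Csk from 0.33 to -0.0044 in cycling-like cells, each against quiescent DP-like cells, and Ptpn6 from 0.04 to -0.28, also a call, in CD8 SP-like against signaled DP-like cells. Csk turned from -0.29 to 0.026 in negative selection-like against signaled DP-like cells of unsorted mice, Cbl from -0.28 to 0.035 from window 4 to 5 of CD8-fated mice in the maturation order, and Ptpn22 from 0.06 to -0.33 in the CD5 split without cycling-like and DN-like clusters.

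Counts of called genes follow, the reported count in brackets. In windows 1 to 4 of the lineage difference (7, 98, 334 and 547) they were 0, 7, 78 and 199 without AND and F5, 20, 632, 985 and 977 without OT-I and OT-II, and 52, 355, 696 and 903 with no low-count filter. In windows 1 to 5 (window 5, 1997) they were 3, 20, 50, 140 and 320 without the MHC knockouts, 0, 14, 124, 216 and 1331 without the family term, and 11, 573, 933, 1250 and 498 in the uncorrected order. The 2 counts of 0 are by edgeR, with 275 and 174 genes at an unadjusted p under 0.05. DESeq2 gave 162 in window 2, the lane-group order 1 and 59 and the removed sub-clusters 1 and 54 in windows 1 and 2, and the maturation order 21, 37, 872 and 1039 in windows 1, 2, 4 and 5. Of 35 tests of the 7 genes (2 called), 1 was called without AND and F5, in the maturation order, without the family term and without those sub-clusters, 8 without OT-I and OT-II and 0 without the MHC knockouts, where 3 had an unadjusted p under 0.05. The lineage-by-window term gave 895 genes in the maturation order (2725) and 1 of the 7 (2), also with total UMIs. The steps in that order gave 158 (850), 396 (686) and 387 (250) for windows 1 to 2, 2 to 3 and 4 to 5 in CD4-fated and 65 (997) and 407 (1997) for 1 to 2 and 4 to 5 in CD8-fated mice, and total UMIs gave 1097 (686) for 2 to 3 in CD4-fated mice.

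Same-numbered mice of a family deviated together with r of 0.11 to 0.38 for AND and F5, -0.02 to 0.08 for the MHC knockouts and 0.73 to 0.83 for the OT lines, so same-numbered mice ran together in the OT lines and, less closely, in AND and F5, whose numbers also mark the experiment, but not in the MHC knockouts. In the OT lines the number also marks the lane group. The reported fit has no block for same-numbered mice. With the replicate block the lineage difference gave 11, 626 and 895 genes in windows 1, 3 and 4, and it changed no call of the 7 genes. The genotype differences were not run with it. With no replicate block, that is without the mouse as a term, the wild-type branch gave 439 genes (2809) and 0 of the 7 (3), and against quiescent DP-like cells the count was 3310 for CD4 SP-like (5591), 4498 for CD8 SP-like (6755), 4112 for DN-like (6688), 3215 for Treg-like (5276), 4778 for cycling-like (7257), 3331 for interferon-like (5413), 3786 for mature SP-like (5822) and 2047 for signaled DP-like cells (4518). Against signaled DP-like cells it was 2564 for CD8 SP-like (5047), 2246 for mature SP-like (4436) and 1538 for negative selection-like cells (3668), and Treg-like against mature SP-like cells gave 413 (1610).

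In unsorted mice the branch gave 1007 genes and 0 of the 7, with none at an unadjusted p under 0.05 by edgeR. The classes against quiescent DP-like cells gave 3263 for CD4 SP-like, 3017 for Treg-like, 2910 for interferon-like, 3358 for mature SP-like, 3870 for negative selection-like (6153) and 1994 for signaled DP-like cells, those against signaled DP-like cells 2669 for CD8 SP-like, 1930 for mature SP-like and 1707 for negative selection-like cells, and Treg-like against mature SP-like cells 210. DESeq2 gave 1454 for the branch. For CD5 (6236) and CD69 (5166) the counts were 3180 and 2221 in wild-type mice, with 3 and 1 of the 7 (6 each), and 2819 and 3238 without cycling-like and DN-like clusters. Without the wild-type mice window 1 gave 9 for AND against F5 (5) and 76 for OT-II against OT-I (37).

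With 1 mouse left out, the counts ranged from 532 to 905, 439 to 760, 753 to 1277 and 114 to 277 over the 4 steps in CD4-fated mice and from 507 to 921, 489 to 835 and 993 to 1624 over the first 3 in CD8-fated mice. They ranged from 1035 to 1618 for Treg-like against mature SP-like cells, and for the lineage difference from 6 to 12, 54 to 209 and 221 to 582 in windows 1 to 3, with 1 to 2 of the 7 called, or 1 to 3 in the lineage-by-window term. In windows 1 to 5 they ranged from 1 to 6, 59 to 246, 98 to 278, 114 to 255 and 29 to 91 for AND against F5, from 0 to 4, 7 to 55, 33 to 166, 34 to 139 and 140 to 813 for the MHC knockouts and from 11 to 36, 4 to 51, 5 to 34, 38 to 78 and 159 to 778 for the OT lines, with 0 to 1 of the 7 called.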

Other observations

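Classes of wild-type cells outside the positive selection course also differed from quiescent DP-like cells in the 7 genes. Interferon-like cells, from WT 1 to 5, held 18.2, 19.7, 27.3, 30.3 and 58.7 CPM of Cblb and 219.99, 174, 186, 152 and 117 CPM of Ptpn6. By edgeR these were 1.22 (SE 0.19) and 1.18 (SE 0.11) above the quiescent class on the log2 scale, Csk was 1.04 above it (SE 0.10), and Cbl was 1.65 below it (log2 fold change -1.65, SE 0.12).

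Cycling-like cells held 48.1, 82.1, 64.2, 54.4 and 66.3 CPM of Ptpn22, lower than the quiescent class by edgeR (-0.70, SE 0.10, adjusted p = 4e-09), while Ptpn6 was higher (0.63, SE 0.11). Cblb and Ubash3a, at -0.21 and -0.24, were not called there. In DN-like cells of WT 4 and 5 Ptpn22 was at 47.0 and 53.1 CPM (-0.88, SE 0.15) and Cbl at 176 and 227 CPM (-1.39, SE 0.15), each lower by edgeR, whereas Cblb was higher. Ptpn22 and Cblb therefore differed in opposite directions in DN-like cells. In NKT-like cells Ptpn6 was 1.93 above the quiescent class (SE 0.13) and Csk 1.06 above it (SE 0.12), with Csk at 288, 245, 216, 257 and 218 CPM.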
